A study of Mus musculus with 18 samples.

Results

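Gpc3, Kcnn4, Chd3, Slc16a7, Elavl2, S1pr3 and Eng are 7 of the 23329 genes in the count tables. They were chosen because each had more reads in a cell line carrying the P248L form of the interleukin-3 receptor alpha chain than in a line carrying the wild-type form, either without IL-3 or after 2 days in IL-3. No numerical threshold was set for that choice. The untreated and day 2 levels below, and every change from untreated, therefore describe the choice and carry no test. The tested comparison for these genes is P248L against wild-type at day 5. The rule for the choice did not use those libraries, but they come from the same pair of lines. The genes were also chosen with earlier results of these data known. The day 5 p-values are thus not shown to be independent of the choice.

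RNA was sequenced from FDH cells, immortalized fetal liver cells of BALB/c embryos at E14.5 on a bc-/- bIL-3-/- background, used at passages 10 to 12. One line had been transduced with IL3Ra P248L and bc, and its counterpart with wild-type IL3Ra and bc, where bc is the common beta chain of the receptor. Each line gave 3 libraries untreated, 3 after 2 days and 3 after 5 days in IL-3. The groups are thus P248L untreated, P248L day 2 and P248L day 5, and wild-type untreated, wild-type day 2 and wild-type day 5. Untreated cells grew with doxycycline and mouse SCF at 100 ng/ml. The IL-3 medium is described with IL-3 at 100 ng/ml and without doxycycline or SCF, so the arrival of IL-3 and the loss of those supplements cannot be told apart. Both groups of cells lacked their own bc and bIL-3 and carried the introduced bc. Each receptor is represented by 1 line, so the receptor and other differences between the lines cannot be told apart. Nothing in the labels says that the libraries of a group came from separate cultures, so the p-values measure the spread between these libraries, which may be technical.

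As background, the IL-3 receptor alpha chain binds the cytokine and pairs with the common beta chain, which signals through JAK2 and STAT5 and drives survival, growth and differentiation of myeloid progenitors. The 7 genes do not form 1 pathway. They include a cell-surface proteoglycan and cell-surface receptors. Gpc3 is a glypican, a heparan sulfate proteoglycan held to the membrane by a lipid anchor. It is well known from fetal liver and liver tumours. Eng (endoglin) is an accessory receptor for TGF-beta and BMP ligands found on endothelium and on some haematopoietic progenitors. S1pr3 is a G-protein-coupled receptor for the lipid sphingosine 1-phosphate. Kcnn4 is an intermediate-conductance potassium channel opened by calcium, prominent in red cells and immune cells, and Slc16a7 is MCT2, a carrier with high affinity for pyruvate and lactate. Chd3 is a chromatin-remodelling ATPase of the NuRD complex. Elavl2 is a mostly neuronal RNA-binding protein that recognises AU-rich elements in messenger RNAs.

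Libraries held between 13844612 and 27181962 reads in genes. Levels are given in CPM, read counts relative to the total of each library, after TMM scaling, which corrects for differences in library composition. Haematopoietic progenitor markers (11 of 12 listed genes in the tables, all with reads in all groups) summed to between 8304 and 10550 CPM in untreated P248L libraries and between 9557 and 10370 CPM in untreated wild-type libraries. Most of that was Mpo, at 6312 CPM in P248L and 7073 CPM in wild-type. Single markers differed both ways untreated, such as Hoxa9 (83.8 CPM in P248L, 170 CPM in wild-type) and Cd34 (1103 CPM in P248L, 711 CPM in wild-type). At day 2 the sums were 6068 to 10411 CPM in P248L libraries and 3621 to 4086 CPM in wild-type libraries. At day 5 they were 1742 to 1924 CPM in P248L libraries and 1220 to 1341 CPM in wild-type libraries. Most of the day 5 sums was Ptprc, at 1207 CPM in P248L and 1105 CPM in wild-type. Mpo was then at 240 CPM in P248L and 6.32 CPM in wild-type. Kit (28.9 CPM in P248L, 38.7 CPM in wild-type) and Meis1 (6.03 CPM in P248L, 6.41 CPM in wild-type) were lower in P248L at day 5, and the other listed markers were higher. P248L untreated replicate 1 and P248L day 2 replicate 3 stood farthest from the mean of the other libraries of their group. Their median absolute differences over genes were 0.418 and 0.393 on the log2 scale, against at most 0.351 for the remaining libraries. Leaving both out changed the members' P248L untreated and day 2 means by factors of 0.834 to 1.23. P248L day 2 replicate 3 also had 3.44% of its gene reads in Rn45s, against at most 0.359% in any other library. Gene-level counts cannot tell the P248L coding sequence from the wild-type one, so they offer no check of the receptor labels.

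The 250 bases upstream of the annotated start are shown for Gpc3, S1pr3 and Eng. These were the 3 members with a single promoter window that held no annotated exon and lay outside the gene itself. The windows have 3 different base compositions, in genes with the same direction of difference between the lines. The sequences are from RefSeq on GRCm38.p6, are written 5′ to 3′ on the strand of the gene, and have CG dinucleotides in capitals. Gpc3 lies at chrX:52272426-52613974 on the minus strand and its window at chrX:52613975-52614224. The S1pr3 gene occupies chr13:51408618-51422797 on the plus strand, with its window at chr13:51408368-51408617. Eng occupies chr2:32646595-32682669 on the plus strand, with its window at chr2:32646345-32646594.
Gpc3: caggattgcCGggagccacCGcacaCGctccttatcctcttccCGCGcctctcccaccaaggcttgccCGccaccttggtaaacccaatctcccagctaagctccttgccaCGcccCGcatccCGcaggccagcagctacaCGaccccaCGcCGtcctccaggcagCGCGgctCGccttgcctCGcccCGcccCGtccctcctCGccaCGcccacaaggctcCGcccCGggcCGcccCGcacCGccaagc
S1pr3: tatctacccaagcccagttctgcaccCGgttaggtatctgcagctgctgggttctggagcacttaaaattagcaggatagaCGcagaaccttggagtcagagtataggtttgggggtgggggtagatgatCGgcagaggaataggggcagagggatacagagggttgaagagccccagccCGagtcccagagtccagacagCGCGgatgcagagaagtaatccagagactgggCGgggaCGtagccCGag
Eng: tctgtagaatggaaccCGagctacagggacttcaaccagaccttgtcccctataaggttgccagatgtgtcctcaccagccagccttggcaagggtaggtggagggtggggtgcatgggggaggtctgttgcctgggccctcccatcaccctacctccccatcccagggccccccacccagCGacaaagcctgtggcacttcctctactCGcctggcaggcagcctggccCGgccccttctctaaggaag
The Gpc3 window was GC-rich, with 25 CG dinucleotides and 71.6% G plus C. Of 27025 mouse promoter windows of that length, whose median was 6 CG dinucleotides, 10.3% held at least as many. The S1pr3 window had 9 CG dinucleotides, a count reached by 40.7% of windows, and the Eng window had 4, a count reached by 61.9%. A set of 5 short motifs was searched on both strands. CGCG was found 2 times in the Gpc3 window and 1 time in the S1pr3 window, and 34.0% of all windows held it. None of the others matched in these 3 windows: the STAT motif TTCNNNGAA, held by 7.18% of all windows, the motif of the GATA factors, written AGATAA and held by 10.3%, the RUNX motif TGTGGT, held by 14.2%, and the E-box CAGGTG, held by 17.1%.

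Gpc3 showed the clearest contrast between presence and near absence. Untreated P248L libraries had 32.8, 32.6 and 25.7 CPM, against 0.497, 0.387 and 0.177 CPM in untreated wild-type libraries. After 2 days in IL-3, P248L libraries had 7.61, 9.17 and 9.19 CPM, while the wild-type libraries held no read. The P248L level was lower still at day 5, with 6.16, 5.14 and 2.95 CPM, against 0, 0.0569 and 0 CPM in wild-type libraries. Each P248L group was thus lower than the one before it with no overlap, and every P248L library stayed above every wild-type library. The log2 fold change, P248L over wild-type, was 6.41 ± 0.34 (SE) in untreated cells. At day 2, 458 P248L reads stood against 0 wild-type reads, which makes the level at least 168-fold higher when the wild-type group is set at a floor of 3 reads over the group. At day 5 the 247 P248L reads and the single wild-type read gave a ratio of 238, with a 95% counting interval of 42.3 to 9434 that covers counting error only.

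Eng was higher in the P248L line at each time and had lower levels in IL-3 than untreated in both lines. Untreated P248L libraries had 24.8, 25.9 and 22.5 CPM, against 5.67, 4.80 and 4.88 CPM in untreated wild-type libraries. The day 2 values spread widely in the P248L line, at 20.3, 15.1 and 7.65 CPM, against 1.09, 1.03 and 0.836 CPM in the wild-type line. At day 5 they were 9.40, 7.21 and 7.72 CPM in P248L libraries and 1.95, 1.42 and 0.952 CPM in wild-type libraries. P248L day 2 replicate 3 is the low value at day 2, and the day 2 mean was 14.3 CPM with it and 17.7 CPM without it. The log2 fold over wild-type was 2.26 ± 0.26 (SE) untreated and 3.86 ± 0.31 at day 2. Eng overlaps the oppositely transcribed Fpgs by 61 bases, and reads on the strand opposite to Eng made up 19.1% of reads over the gene in P248L untreated libraries and 37.5% in wild-type untreated libraries. At day 2 the shares were 19.8% in P248L libraries and 75.2% in wild-type libraries. The wild-type day 2 libraries thus held 179 opposite-strand reads against 59 Eng reads. At day 5 the shares were 7.49% in P248L libraries and 28.3% in wild-type libraries. Reads on the opposite strand are not part of the Eng counts.

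S1pr3 was the member closest between the lines before IL-3 and came apart once IL-3 was added. The untreated levels were 30.2, 34.7 and 33.4 CPM in P248L libraries, against 21.5, 21.0 and 18.9 CPM in wild-type libraries. At day 2 the P248L libraries still had 12.9, 10.4 and 9.56 CPM, against 0.479, 0.689 and 0.574 CPM in the wild-type line. By day 5 the P248L level was 3.15, 3.76 and 2.82 CPM, against 0.731, 0.398 and 0.340 CPM in wild-type libraries. The line difference was 0.68 ± 0.16 (log2, SE) untreated and 4.25 ± 0.22 at day 2. Within the lines, the day 2 level over untreated was -1.57 ± 0.17 (log2) in P248L cells and -5.14 ± 0.22 in wild-type cells. At day 5 these changes were -3.34 ± 0.19 in P248L cells and -5.36 ± 0.23 in wild-type cells.

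**Figure D1:**
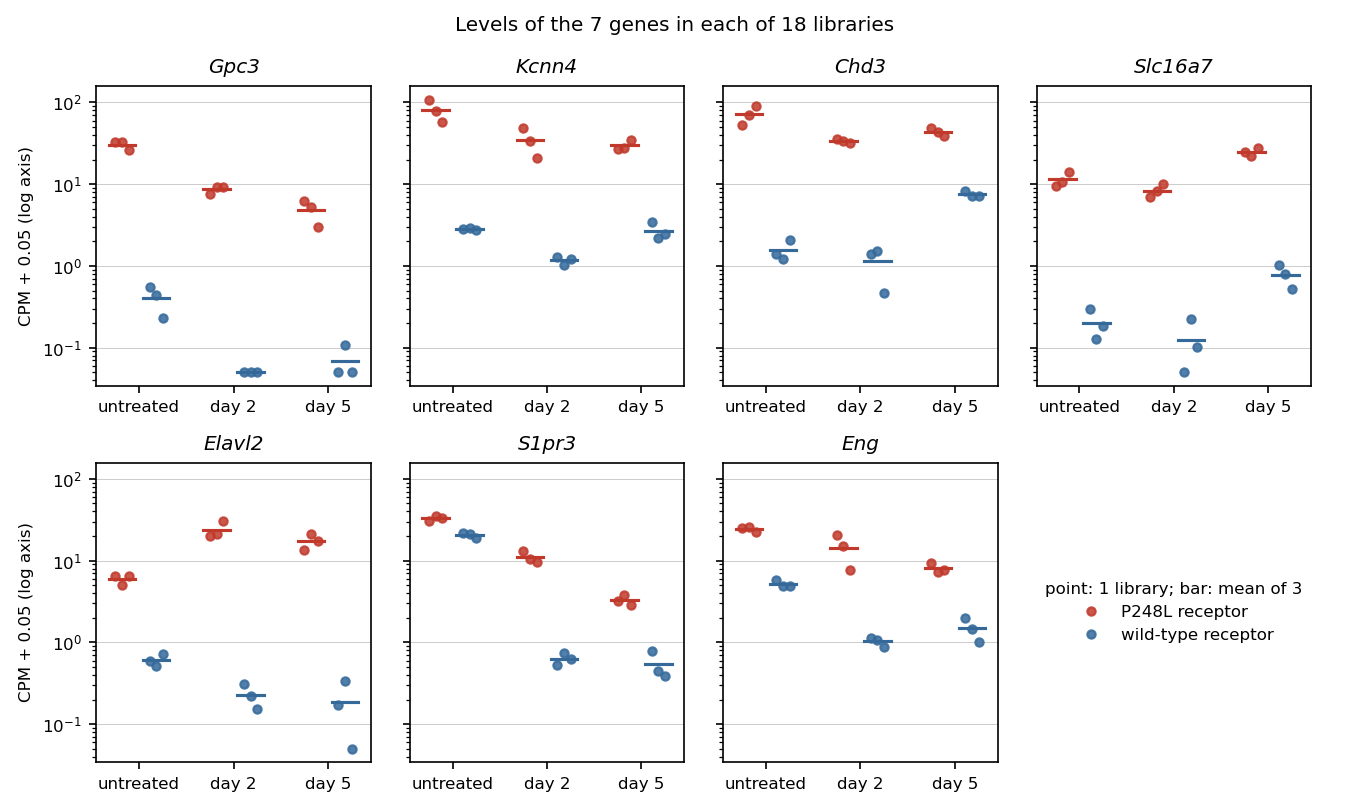
Level of each of the 7 genes in every library (points) with the mean of each group (bar), on a log axis of CPM plus an offset of 0.05, for P248L and wild-type cells untreated and at days 2 and 5 in IL-3. In each gene and at each time the 3 P248L points lie above the 3 wild-type points, with the smallest gap for untreated S1pr3 (30.2 to 34.7 CPM in P248L, 18.9 to 21.5 CPM in wild-type).

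Kcnn4 (chr7:24369826-24385212, plus strand) was the most abundant member per length in untreated P248L cells, at 15.8 CPM per kilobase of exon. Its untreated P248L libraries had 108, 77.7 and 57.4 CPM, against 2.78, 2.86 and 2.66 CPM in wild-type libraries. At day 2 P248L libraries had 48.2, 33.8 and 20.9 CPM, against 1.22, 0.975 and 1.15 CPM in wild-type libraries. At day 5 the values were 27.2, 28.0 and 34.3 CPM in P248L libraries and 3.35, 2.16 and 2.38 CPM in wild-type libraries. The P248L day 2 and day 5 ranges overlapped, as did the wild-type untreated and day 5 ranges, and the wild-type day 2 libraries were lower than both. The log2 fold over wild-type was 4.87 ± 0.30 (SE) untreated and 4.93 ± 0.32 at day 2.

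Slc16a7 (chr10:125219270-125389586, minus strand) was highest at day 5 in both lines. Untreated P248L libraries had 9.46, 10.7 and 14.1 CPM, against 0.249, 0.0774 and 0.133 CPM in wild-type libraries. At day 2 there were 6.82, 8.25 and 9.85 CPM in P248L libraries, against 0, 0.172 and 0.0522 CPM in wild-type libraries, where the wild-type values rest on 4 reads in all. At day 5 P248L libraries had 24.8, 22.3 and 27.3 CPM, against 0.975, 0.739 and 0.476 CPM in wild-type libraries. In each line the 3 day 5 libraries lay above all untreated ones, while the untreated and day 2 ranges overlapped. The log2 fold over wild-type was 6.21 ± 0.37 (SE) untreated and 6.81 ± 0.44 at day 2.

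Chd3 (chr11:69343273-69369499, minus strand) had 52.7, 70.4 and 91.3 CPM in untreated P248L libraries, against 1.34, 1.16 and 2.00 CPM in wild-type libraries. At day 2 it had 36.0, 33.2 and 31.5 CPM in the P248L line, against 1.35, 1.49 and 0.418 CPM in the wild-type line. At day 5 it had 48.9, 43.3 and 38.9 CPM in P248L libraries, against 8.22, 7.05 and 7.14 CPM in wild-type libraries. The lines moved in opposite directions by day 5, with all P248L libraries below their untreated ones (log2 -0.71 ± 0.23, SE) and all wild-type libraries above theirs (2.32 ± 0.29). The gap between the lines accordingly measured 5.57 ± 0.30 untreated and 4.94 ± 0.31 at day 2, both larger than its day 5 value below.

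Elavl2 (chr4:91211533-91400108, minus strand) also moved in opposite directions. Untreated P248L libraries had 6.49, 5.01 and 6.47 CPM, against 0.547, 0.464 and 0.665 CPM in wild-type libraries. At day 2 P248L libraries had 20.0, 21.2 and 30.7 CPM, against 0.261, 0.172 and 0.104 CPM in wild-type libraries. At day 5 they had 13.5, 21.1 and 17.3 CPM, against 0.122, 0.284 and 0 CPM in wild-type libraries. Both IL-3 groups of the P248L line lay above its untreated group and both IL-3 groups of the wild-type line below theirs. The day 2 and day 5 ranges overlapped within each line. The line difference was 3.41 ± 0.32 (log2, SE) untreated, on 427 P248L and 38 wild-type reads, and 6.97 ± 0.38 at day 2.

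Per kilobase of exon, untreated P248L cells had 15.8 CPM of Kcnn4, 11.3 of Gpc3, 8.47 of Chd3, 7.34 of S1pr3 and 6.03 of Eng, while Slc16a7 and Elavl2 had 0.964 and 0.721. In untreated wild-type cells S1pr3 led, with 4.58 CPM per kilobase, followed by Eng with 1.26, and the other members had at most 0.541. Across all tested genes, 15% had all 3 P248L libraries above all 3 wild-type libraries untreated and 20.6% at day 2, while 19.3% and 25.7% had all 3 below. All 7 members have all 3 P248L libraries above at both times, in the same libraries from which they were chosen. In bulk RNA, fewer cells expressing a gene and less RNA of it per cell cannot be told apart.

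At day 5 the comparison of P248L with wild-type cells was tested with edgeR's quasi-likelihood test and Benjamini-Hochberg adjustment over 11942 genes. Elavl2 averaged 17.3 ± 3.79 CPM in P248L cells and 0.135 ± 0.143 CPM in wild-type cells (SD, n = 3 each), a log2 fold of 6.85 ± 0.40 (SE; edgeR adjusted p = 2.8e-10). Its wild-type mean rests on 7 reads, and the log2 fold was 6.35 without wild-type day 5 replicate 3 and 7.93 without wild-type day 5 replicate 2. Gpc3 and Slc16a7 passed the filter on low counts only through P248L libraries, so a large fold was a condition of their being tested, and their day 5 values are given without a p. Slc16a7 averaged 24.8 ± 2.49 CPM in P248L cells and 0.730 ± 0.249 CPM in wild-type cells, a log2 fold of 5.06 ± 0.31 (36 wild-type reads). For Gpc3 the means were 4.75 ± 1.64 CPM in P248L cells and 0.0190 ± 0.0328 CPM in wild-type cells, where 1 read was found, in replicate 2.

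The remaining 4 members had smaller day 5 folds. Kcnn4 was 11.3-fold higher, at 29.8 ± 3.91 CPM in P248L cells and 2.63 ± 0.633 CPM in wild-type cells (log2 3.50 ± 0.29, SE; edgeR adjusted p = 3.1e-08). S1pr3 was 6.49-fold higher, at 3.24 ± 0.475 CPM in P248L cells and 0.490 ± 0.211 CPM in wild-type cells (log2 2.70 ± 0.25; edgeR adjusted p = 1.2e-07). Chd3 was 5.84-fold higher, at 43.7 ± 4.99 CPM in P248L cells and 7.47 ± 0.652 CPM in wild-type cells (log2 2.55 ± 0.26; edgeR adjusted p = 2.7e-07). Eng was 5.59-fold higher, at 8.11 ± 1.15 CPM in P248L cells and 1.44 ± 0.499 CPM in wild-type cells (log2 2.48 ± 0.31; edgeR adjusted p = 3.4e-06).

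Higher expression in P248L cells was common among all genes at day 5: 22.8% of tested genes were called higher in P248L and 22.7% lower, and 33.4% had all 3 P248L libraries above all 3 wild-type ones (32.5% had all 3 below). Of the 978 genes (8.19%) with all 3 above at both earlier times, 614 (5.14% of all genes) also had it at day 5, and the 7 members are among them. The day 5 fold of Kcnn4 was exceeded by that of 72 genes, and those of S1pr3, Chd3 and Eng by 144, 170 and 182 genes.

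**Figure D2:**
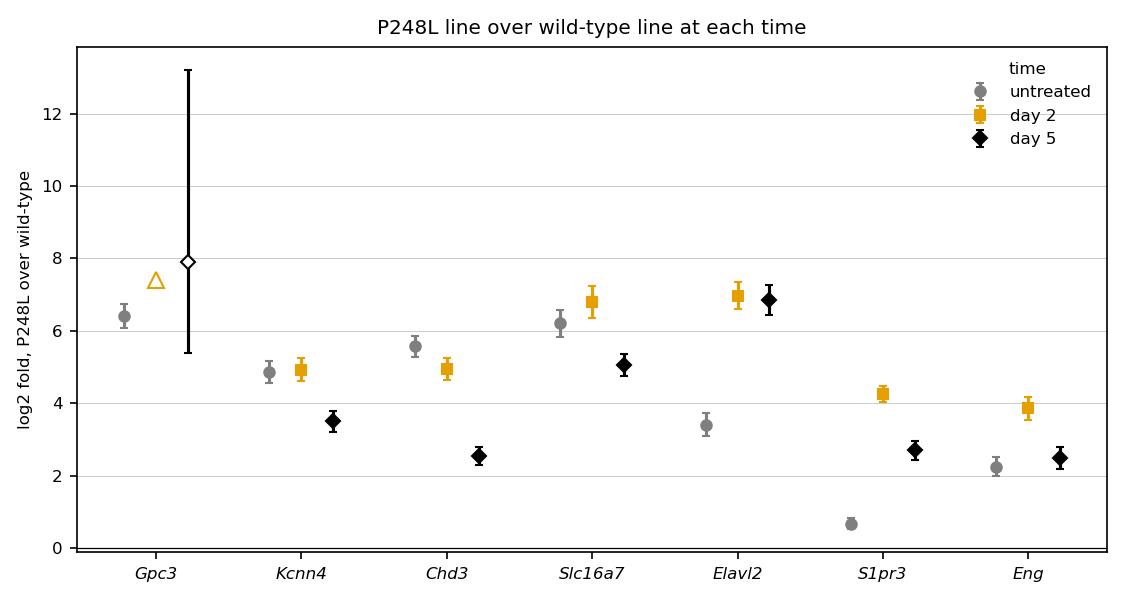
Log2 fold change of P248L over wild-type (points; bars are ± 1 SE) for each gene untreated and at days 2 and 5; for Gpc3 the open triangle is the lower bound at day 2 and the open diamond the day 5 ratio with its 95% counting interval. S1pr3 stands near 0.68 untreated and at 4.25 on day 2, Elavl2 at 3.41 and 6.97, and Chd3 is nearer to wild-type at day 5 (2.55) than untreated (5.57).

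Within the P248L line the members took different courses in IL-3. Gpc3, Kcnn4, S1pr3 and Eng were lower than untreated at both times, with log2 changes at day 5 of -2.67 ± 0.26, -1.44 ± 0.25, -3.34 ± 0.19 and -1.58 ± 0.26 (SE). Chd3 was lower too, by smaller amounts at day 5 than at day 2 (-1.09 ± 0.24 at day 2). Slc16a7 was 1.13 ± 0.23 higher at day 5, and Elavl2 2.00 ± 0.25 higher at day 2 and 1.53 ± 0.25 higher at day 5. In the wild-type line S1pr3, Eng and Elavl2 were lower at both times, whereas Chd3 (2.32 ± 0.29) and Slc16a7 (2.28 ± 0.50) were higher at day 5. For comparison, 35% of all tested genes had every P248L day 5 library above every untreated one and 35.5% had every one below; in the wild-type line these shares were 40.4% and 42.8%. At day 2 the shares above and below were 16.6% and 19.2% in the P248L line and 32.2% and 32% in the wild-type line. Both lines' times share their untreated libraries, and the changes are given as values only.

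**Figure D3:**
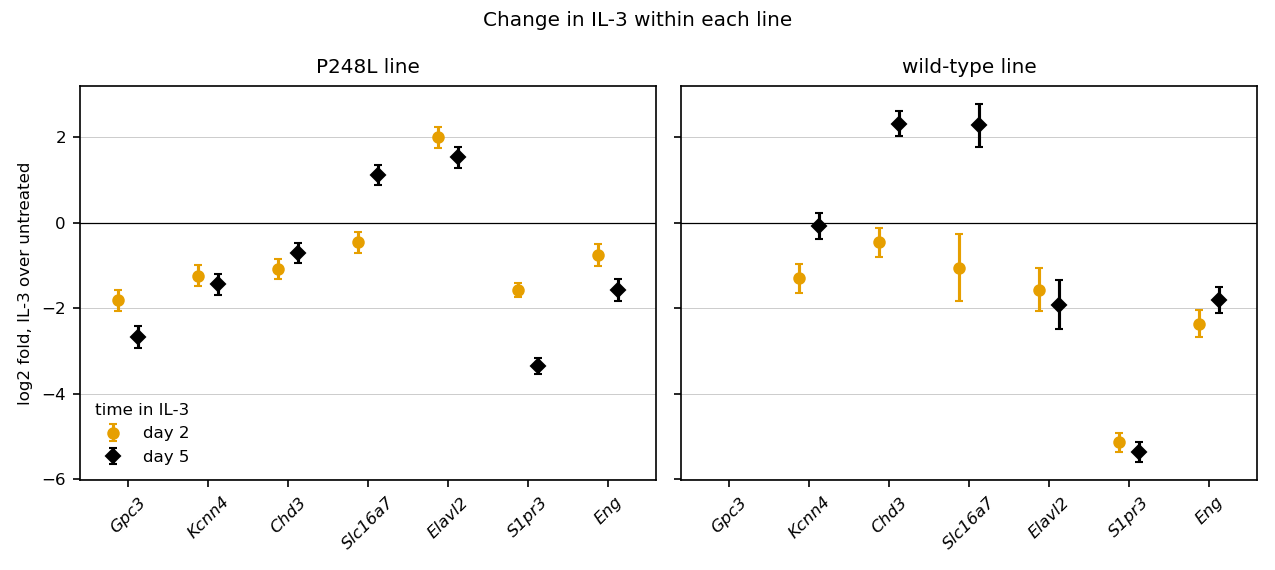
Log2 fold change of each gene in IL-3 over untreated at day 2 and day 5 (points; bars are ± 1 SE), P248L line on the left and wild-type line on the right. Elavl2 lies above 0 in the P248L line (2.00 and 1.53) and below 0 in the wild-type line (-1.56 and -1.91); wild-type Gpc3 is not drawn because it had 24 reads untreated, 0 at day 2 and 1 at day 5.

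Several members are known from cell types other than myeloid progenitors, so markers of those types were read from the same libraries. The 10 endothelial markers, relevant to Eng and S1pr3, summed to between 106 and 124 CPM in untreated P248L libraries and between 148 and 157 CPM in untreated wild-type libraries. Most of that was Pecam1, at 104 CPM in P248L and 146 CPM in wild-type, and Cdh5, Kdr, Cldn5 and Emcn were at 0 reads in both untreated groups. Egfl7 went the other way to Pecam1, at 10.9 CPM in P248L and 5.94 CPM in wild-type untreated cells. It was also higher in P248L at day 2 (4.27 CPM in P248L, 1.88 CPM in wild-type) and at day 5 (1.67 CPM in P248L, 0.616 CPM in wild-type). At day 5 the endothelial sum was 160 to 192 CPM in P248L libraries and 487 to 585 CPM in wild-type libraries, with Vwf at 74.1 CPM in P248L and 413 CPM in wild-type, Kdr at 0.134 CPM in P248L and 4.48 CPM in wild-type, and Cldn5 and Emcn at 0 reads in both. The hepatoblast list, relevant to Gpc3, summed to between 97.5 and 178 CPM in untreated P248L libraries and between 26.4 and 27.4 CPM in wild-type libraries. Nearly all of it was Hnf4a, a liver and gut transcription factor, with 138 CPM in P248L and 26.1 CPM in wild-type, while Alb, Ttr, Krt8 and Krt18 were at 0 reads in both groups. At day 2 this list summed to 9.78 to 16.0 CPM in P248L libraries and 15.4 to 16.3 CPM in wild-type libraries. At day 5 it summed to 6.21 to 7.22 CPM in P248L libraries and 4.95 to 5.31 CPM in wild-type libraries. Afp, of the same list, was lower in P248L, at 0.565 CPM against 0.889 CPM in wild-type untreated cells. It had 1.03 CPM in P248L and 13.9 CPM in wild-type at day 2, and 0.488 CPM in P248L and 3.60 CPM in wild-type at day 5. The stromal list summed to between 8.44 and 12.0 CPM in untreated P248L libraries and between 0.133 and 0.387 CPM in wild-type libraries. All of it was Pdgfrb, with the collagens, Dcn, Lum and Pdgfra at 0 reads. The stromal sum ran the other way at day 5, at 1.16 to 1.63 CPM in P248L libraries and 15.2 to 20.0 CPM in wild-type libraries. That came from Pdgfra, which had 0.207 CPM in P248L and 17.4 CPM in wild-type, with Dcn and Lum at 0 reads. Pdgfrb did not reverse, at 1.11 CPM in P248L and 0.0227 CPM in wild-type. The neuronal list, relevant to Elavl2, stayed under 1 CPM in every library. The sum of the mast cell markers moved apart between the lines in IL-3. By day 5 it was 36.6 to 58.1 CPM in P248L libraries and 2122 to 3130 CPM in wild-type libraries. Cpa3 made up most of it, at 37.8 CPM in P248L and 2552 CPM in wild-type. Cma1 (0.981 CPM in P248L, 67.8 CPM in wild-type) and Gata2 (8.87 CPM in P248L, 51.4 CPM in wild-type) went the same way. Ms4a2 did not, at 0.705 CPM in P248L and 0.602 CPM in wild-type. Tpsb2 had 1 read in P248L and 21 reads in wild-type. The part of these marker differences in the results on the 7 genes was not tested.

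The genes most like each member were taken as the 3 with the highest Pearson r in log2 CPM over the 18 libraries. These r values mix the difference between the lines with changes over time, are descriptions, and share the libraries and their depth. Gpc3 was closest to Kcnn4 (r = 0.968), Pdgfrb (0.968) and B4galnt4 (0.966). Kcnn4 was closest to Jmjd8 (0.974), Rcn3 (0.973) and Morn4 (0.972), and Eng to Ccdc84 (0.959), Cand2 (0.957) and Jmjd8 (0.953). Chd3 and Slc16a7 were closest to each other (0.957), yet over the 9 P248L libraries alone their r was 0.149. Elavl2 was closest to Gatm (0.956), Rab31 (0.951) and Fkbp5 (0.939). S1pr3 was closest to Cebpa (0.962), Trit1 (0.952) and Hlf (0.948). Its r over the 9 P248L libraries was 0.961 with Cebpa and 0.977 with Hlf. Over the 9 wild-type libraries it was 0.988 with Cebpa and 0.960 with Hlf. Cebpa encodes a transcription factor of granulocyte and monocyte development, and Hlf one known from haematopoietic stem cells. Mean Hlf was 151 CPM in P248L and 111 CPM in wild-type untreated cells. At day 2 it was 12.4 CPM in P248L and 1.68 CPM in wild-type cells, and at day 5 2.67 CPM in P248L and 0.164 CPM in wild-type cells.

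The nearest tested genes on the chromosome, 2 on each side of each member, mostly did not differ between the lines before IL-3. Some of them are far away, at 1901 to 3165 kb from Elavl2, 695 to 2022 kb from Slc16a7 and 298 to 1252 kb from Gpc3. Such genes do not describe the immediate surroundings of a member. Of the 28, 1 was higher in untreated P248L cells, 3 were lower and 24 did not pass the threshold. The higher one was Ak1, an adenylate kinase gene beside Eng, with 1.27 CPM in P248L and 0.561 CPM in wild-type (log2 1.14 ± 0.28, SE; edgeR adjusted p = 0.0069). The lower ones were Cdkn2a, 1917 kb from Elavl2 (2.11 CPM in P248L, 10.4 CPM in wild-type), Fbxw17, 975 kb from S1pr3, and Zfp61, 66.0 kb from Kcnn4. Across all genes, 10.3% were called higher in untreated P248L cells and 11.3% lower. At day 5, 6 of the 28 were higher and 7 lower, against 22.8% and 22.7% of all genes.

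Relatives of each member were then read from lists of its family or pathway, with members left out, and were tested at all 3 times by edgeR's quasi-likelihood test. The lists were drawn up with earlier results of these data known, so these tests are not shown to be independent of those results. Of 95 listed genes 76 could be tested. In untreated cells 11 were higher in P248L and 11 lower, at day 2 10 were higher and 17 lower, and at day 5 20 were higher and 19 lower. With the replicate number as a block in the P248L untreated and day 2 libraries, whose numbers may pair them, 23 were lower in untreated P248L cells. At day 2 15.5% of all genes were called higher and 20.3% lower. The median log2 fold of all tested genes was -0.01 untreated, -0.00 at day 2 and 0.02 at day 5.

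Of the 9 other glypicans and syndecans 5 could be tested. At each time 3 of the 5 were lower in P248L cells and the other 2 did not pass the threshold, with medians of -2.12 untreated, -3.15 at day 2 and -2.56 at day 5. Gpc1 averaged 1.66 ± 0.373 CPM in P248L and 7.34 ± 0.879 CPM in wild-type untreated cells (SD, n = 3 each; log2 -2.12 ± 0.20, SE; edgeR adjusted p = 2.9e-07). At day 5 Sdc3, a syndecan, averaged 63.5 ± 15.2 CPM in P248L and 402 ± 32.6 CPM in wild-type cells, a log2 fold of -2.66 ± 0.21 (edgeR adjusted p = 1.5e-08). Sdc1 had 0.0518 CPM in P248L and 3.14 CPM in wild-type cells at day 5.

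Among calcium-activated potassium channels, their regulators and calcium entry genes, 1 of 12 was higher and 3 lower in untreated P248L cells, 3 were lower at day 2, and 4 were higher and 2 lower at day 5. The medians stayed near 0 (-0.15, -0.19 and -0.08 at the 3 times in order). Kcnn3, a small-conductance relative of Kcnn4, had 1.39 ± 0.369 CPM in P248L and 63.1 ± 3.13 CPM in wild-type cells at day 5 (log2 -5.52 ± 0.26; edgeR adjusted p = 8.1e-10). Kcnma1, the large-conductance channel, had 1.64 CPM in P248L and 0.352 CPM in wild-type cells at day 5, where it was higher, and 0.0864 CPM in P248L and 0.481 CPM in wild-type cells at day 2, where it was lower. Orai3, a calcium entry channel subunit, had 14.3 CPM in P248L and 28.1 CPM in wild-type cells at day 5.

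For the monocarboxylate carriers, their chaperones and lactate dehydrogenases, 5 of 8 were higher in untreated P248L cells (median 0.45), and 4 were higher and 1 lower at day 5 (median 0.42); at day 2, 2 were higher and 1 lower. Slc16a3, the lactate exporter MCT4, averaged 79.0 ± 7.28 CPM in P248L and 16.9 ± 2.98 CPM in wild-type cells at day 5 (log2 2.22 ± 0.19; edgeR adjusted p = 3.5e-08). Emb (embigin, a chaperone that MCT2 uses) averaged 1050 ± 63.5 CPM in P248L and 431 ± 5.22 CPM in wild-type cells (log2 1.28 ± 0.12; edgeR adjusted p = 1e-07). Ldha had 1321 CPM in P248L and 699 CPM in wild-type cells at day 5. Slc16a10, an aromatic amino acid carrier of the family, had 67.9 CPM in P248L and 43.5 CPM in wild-type cells.

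Of the NuRD subunits other than Chd3, 1 of 14 was higher in untreated P248L cells (median 0.06). At day 2, 2 were higher, and at day 5, 4 were higher and 2 lower (median 0.25). Chd5, a paralog of Chd3, was the lowest relative to wild-type at day 5, with 1.68 ± 0.237 CPM in P248L and 6.87 ± 1.44 CPM in wild-type cells (log2 -2.03 ± 0.30; edgeR adjusted p = 2.4e-05). Rbbp7, Hdac2 and Mta3 were higher at day 5, with log2 folds of 0.62, 0.63 and 0.93.

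AU-rich element binding proteins other than Elavl2 were 6 of 8 higher in P248L cells at day 5 (median 0.57). At day 2, 4 were higher and 2 lower (median 0.41), and in untreated cells 1 was higher (median 0.07). Zfp36l1, which promotes decay of AU-rich messages, averaged 31.0 ± 4.08 CPM in P248L and 6.25 ± 0.402 CPM in wild-type cells at day 5 (log2 2.31 ± 0.20; edgeR adjusted p = 3.5e-07). At day 2 it was lower in P248L cells, at 0.0245 CPM in P248L and 0.385 CPM in wild-type cells. Khsrp was higher in P248L cells at all 3 times, with 324, 322 and 192 CPM in P248L cells, against 215, 193 and 98.1 CPM in wild-type cells, at untreated, day 2 and day 5 in order.

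In the sphingosine 1-phosphate list, 1 of 8 was higher at each time, S1pr1, while 1 was lower untreated, 3 at day 2 and 3 at day 5 (medians -0.13, -0.40 and -0.40 in time order). S1pr1, the receptor that guides lymphocyte exit, averaged 25.3 ± 0.369 CPM in P248L and 12.5 ± 0.621 CPM in wild-type untreated cells (log2 1.02 ± 0.15; edgeR adjusted p = 9.9e-05). At day 5 it had 83.7 CPM in P248L and 52.1 CPM in wild-type cells, so its level was above untreated in both lines when that of S1pr3 was below. Sgpl1, the lyase that degrades sphingosine 1-phosphate, averaged 447 CPM in P248L and 1091 CPM in wild-type cells at day 5 (log2 -1.29 ± 0.12; edgeR adjusted p = 7e-08).

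Of the 21 tested TGF-beta and BMP genes, the pathway of Eng, 4 were lower and 2 higher in untreated P248L cells, 5 lower and 1 higher at day 2, and 8 lower and 1 higher at day 5, with medians of -0.29, -0.28 and -0.32. At day 5 the type II receptor Tgfbr2 averaged 245 ± 36.4 CPM in P248L and 742 ± 13.1 CPM in wild-type cells (log2 -1.60 ± 0.13; edgeR adjusted p = 1.4e-08). Bmpr1a, a BMP type I receptor, had 0.231 CPM in P248L and 5.37 CPM in wild-type cells (log2 -4.57 ± 0.37; edgeR adjusted p = 1.7e-08). Id2, a target of BMP signalling, had 290 CPM in P248L and 806 CPM in wild-type cells. Id1, of the same list, went the other way at day 5. It had 96.2, 96.6 and 79.9 CPM in P248L libraries and 58.3, 51.2 and 53.6 CPM in wild-type libraries. Acvrl1, the type I receptor that works with endoglin on endothelium, had 0.276 ± 0.116 CPM in P248L and 13.9 ± 3.32 CPM in wild-type cells at day 2 (log2 -5.54 ± 0.30; edgeR adjusted p = 1.2e-10), and in untreated cells, where it was higher, 0.946 CPM in P248L and 0.328 CPM in wild-type. At day 5 Acvrl1 did not pass the threshold, at 13.2 CPM in P248L and 9.45 CPM in wild-type cells, although all 3 P248L libraries lay above all 3 wild-type ones.

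**Figure D4:**
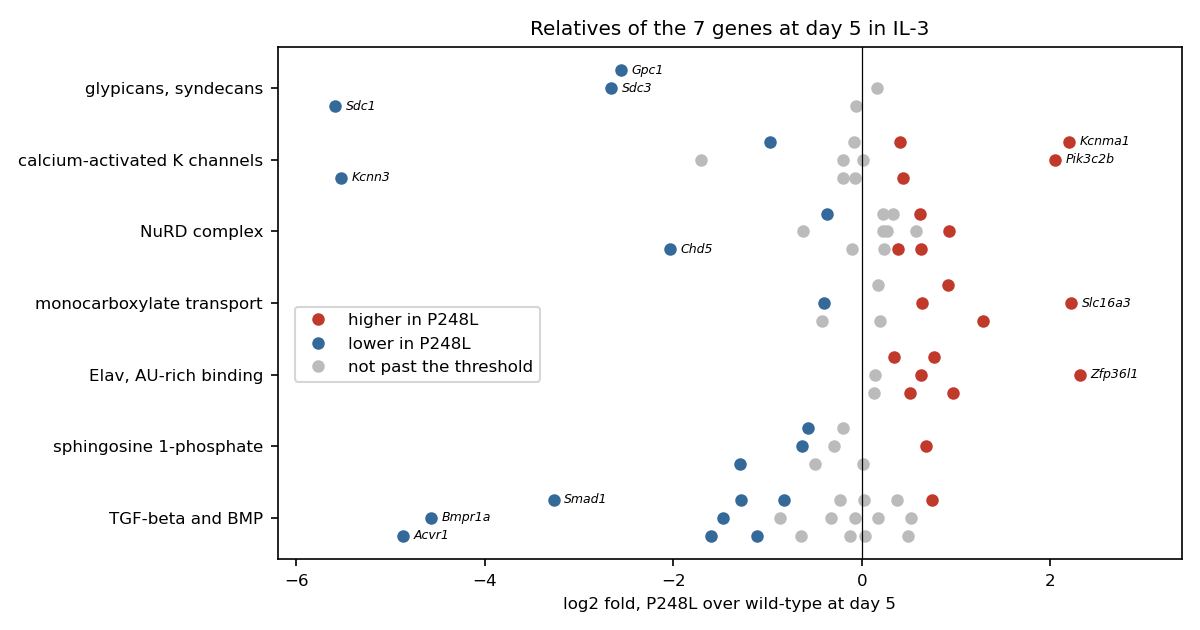
Log2 fold change of P248L over wild-type at day 5 for each tested relative of the 7 genes (points), grouped by list; red marks genes higher in P248L, blue lower, and grey genes not past the threshold of 0.05 on the edgeR adjusted p. Sdc3 (-2.66) and Kcnn3 (-5.52) lie on the lower side while Slc16a3 (2.22) and Zfp36l1 (2.31) lie on the higher side; Sdc1, Acvr1 and Smad1 had under 0.06 CPM in P248L cells, and their fitted folds rest on few reads.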

How the data were processed

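RNA-seq counts per gene from 18 libraries, 3 for each of 6 groups, were used as deposited. Per the submitters' processing notes the reads were handled with STAR on mm10, with no version given; the annotation, the counting settings and the library kit's strandedness are not stated in the labels used here. Each deposited file gives 3 count columns per gene, and the fourth column, counts of reads on one strand, was used because the opposite strand held 1.17% to 2.54% of a library's stranded gene reads. The 4 rows that name no gene, 27.9% to 38.1% of reads, were left out, which leaves 13844612 to 27181962 gene reads per library. Genes were kept by edgeR's filterByExpr at a minimum count of 10 (11942 of 23329), scaled by TMM and fitted with the quasi-likelihood test in edgeR 4.0.16 (R 4.3.3) over all 18 libraries with 1 mean per group. The Benjamini-Hochberg threshold was 0.05, CPM are TMM-scaled, and the SE of a log2 fold is its size over the square root of F. Alternatives were DESeq2 1.42.0, limma-voom (limma 3.58.1), library size alone, other filters, a replicate block, fewer libraries, and each replicate left out. No 2 replicates agreed within sampling noise. Deviations of same-numbered libraries from their group means correlated at 0.46, 0.17 and 0.35 between P248L untreated and day 2. The numbers may thus pair those libraries, as read from the data and not from the labels. A block for them alone was added after seeing the data. No other pair of groups compared met the rule of every correlation over 0.1.

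The members and all lists were chosen with earlier results of these data known. Named relatives are up to 4 per list with the smallest adjusted p in the comparison described. Coordinates and promoters are RefSeq on GRCm38.p6, and exon lengths are unions of GENCODE exons. Fits were tested on simulated data first. Figures used matplotlib 3.10.9.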

Additional observations from a re-analysis of the deposited data

Results flagged for a closer look

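Elavl2 was marked because every library of the 2 lines moved in opposite directions in IL-3: its log2 change at day 2 was 2.00 in the P248L line and -1.56 in the wild-type line, and at day 5 it was 1.53 in the P248L line and -1.91 in the wild-type line. Chd3 did so at day 5, with -0.71 in the P248L line and 2.32 in the wild-type line. These differences between the lines were not tested, because the untreated libraries were used to choose the genes.

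Reads on the strand opposite to Chd3, which no comparison uses, made up 2.64% of the reads over the gene in P248L untreated libraries (135 reads) and 1.84% in P248L day 5 libraries (42 reads), against 0 reads in wild-type untreated libraries and 6 reads in wild-type day 5 libraries. The share of opposite-strand reads reached 2.54% in a whole P248L untreated library and 1.66% in a whole P248L day 5 library. With 3 libraries per group, no test for a single deviating library was made.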

How the results depend on the processing

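Kcnn4, Chd3, Elavl2, S1pr3 and Eng stayed higher in P248L cells at day 5 with an edgeR, DESeq2 or limma adjusted p under 0.05 in all 12 alternatives and all 18 fits without 1 library. Of the members' untested values, the Kcnn4 wild-type change at day 5, -0.08, changed sign (0.05 with DESeq2, with DESeq2 size factors or without wild-type day 5 replicate 2), and 24 moved by more than the spread between libraries. The Gpc3 log2 fold at day 5, 7.48 in the fit to all libraries, was 9.56 without wild-type day 5 replicate 2, which holds its only wild-type read. All genes called at day 5 numbered 2717 higher and 2716 lower, 2447 to 3525 higher and 2239 to 3571 lower under the alternatives, and 2207 to 3116 higher and 2381 to 3117 lower without 1 library. Counts of relatives were less steady. The 11 relatives lower in untreated P248L cells became 7 with a minimum count of 30, the 11 higher became 5 when only the 6 libraries compared were fitted, and the 10 higher at day 2 became 16 without P248L untreated replicate 1 and P248L day 2 replicate 3 together. Without 1 library, those higher untreated numbered 7 to 15 (7 without wild-type untreated replicate 1 or 3), those lower untreated 8 to 17 (17 without P248L untreated replicate 3), those higher at day 2 10 to 12, lower at day 2 16 to 21, higher at day 5 14 to 25 and lower at day 5 15 to 21. The cause was not tested. Replicate numbers did not pair the lines: correlations of same-numbered libraries between the lines ran from -0.39 to 0.37. A fit with the replicate number as a block gave 2777 for all genes higher in P248L at day 5 and 2772 for all genes lower in P248L at day 5. With the block in P248L untreated and day 2 libraries alone, chosen after seeing the data, the relatives lower in untreated P248L cells numbered 23, and no other count moved by over 1.5 times. Depth limits the wild-type levels of Gpc3, Slc16a7 and Elavl2, which rested on 1, 36 and 7 reads at day 5.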
